A study of Mus musculus with 16 samples.

Results

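Histones are the proteins around which DNA is wound, and their genes fall into 2 classes that were both followed here in leukaemia lines from mouse thymus, of the T-cell acute lymphoblastic kind (T-ALL). The genes were those whose older symbols start with Hist1h, Hist2h, Hist3h or Hist4h, called cluster genes below, and the variant genes H2afx, H2afz, H2afv, H2afy, H3f3a, H3f3b and H1f0. The deposited table uses the newer symbols for most of them. A row was therefore taken where its own name met this rule, which held for 7 rows, or where the GENCODE vM21 gene at the same chromosome, start and end met it, which added 41 rows. The 48 genes found, of 13474 rows, were 41 cluster genes (5 for the linker histone H1, 9 for H2A, 13 for H2B, 8 for H3 and 6 for H4) and 7 variant genes, now named H2ax, H2az1, H2az2, Macroh2a1, H3f3a, H3f3b and H1f0. A further 29 genes of the rule in GENCODE vM21 were not among the rows analysed here. No measured value entered the choice.

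RNA was sequenced from 16 cultures. Lines 2883, 2696, 2641 and 2869 are labelled Mcm2cre/cre, a genotype in which a Cre insertion lowers the replication helicase subunit Mcm2, and line 7298 is labelled SCL/LMO1 transgenic. The growth text of all 16, line 7298 included, calls the cells Mcm2hypo. All are thymus-derived and were grown in DMEM with serum, and the 5 parental cultures carry the treatment label PBS. The 11 derivatives are labelled as treated, resistant cells: cytarabine in 2883, 2869 and 7298; vincristine in 2883, 2696 and 2869; etoposide in 2883 and 2696; prednisone in 2883 and 2641; methotrexate in 2883. Doses, times and whether drug was present at harvest are not given in the labels. Each culture is 1 library, every derivative of a line is set against the same parental culture, and the labels do not say whether a derivative is a clone. P-values therefore measure the spread between single cultures. The depth that the values imply ran from 12143000 to 13499000 reads for parental and from 14067000 to 18956000 for resistant cultures, so depth separated the 2 states, and its part in the results was not tested. All 12 T cell markers looked for had a row, summing to 3972 to 4913 CPM (each gene's share of the mapped reads, scaled to a fixed total) in parental libraries and 3334 to 5755 in derivatives, against 1 of 5 B cell, 2 of 6 myeloid, 0 of 5 erythroid and 1 of 8 stromal markers.

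Cells need a large supply of new histones only while DNA is copied. The cluster genes serve this need: they are expressed in S phase, most lack introns, and in place of a poly(A) tail their mRNA ends in a conserved stem-loop. The protein Slbp binds this stem-loop, and the U7 machinery cuts the mRNA behind it. Variant genes such as H3f3a, H3f3b, H2az1 and H1f0 are expressed outside S phase too and give ordinary polyadenylated mRNA, while H2ax can give both forms. Cluster genes can also give polyadenylated mRNA, a form known from differentiating cells and from cells in which stem-loop processing is impaired. The libraries here came from the Illumina Stranded mRNA Prep kit, which captures poly(A) tails. Values of cluster genes thus count mainly whatever tailed or carried-over RNA these genes gave, and not their total mRNA.

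In GENCODE vM21, 37 of the 41 cluster genes had a single exon and 4 had more. Their median span was 614 bases. The 36 genes of the large Hist1 cluster lay on chromosome 13, from 21716422 to 23764406 on mm10, with H2bc21, H2ac18 and H3c13 on chromosome 3 and H2bu2 and H2aw on chromosome 11. The stem-loop is shown first because it is the feature that sets the classes apart. It was searched as 16 bases, a 6-base stem around a 4-base loop, in the first 100 bases after the stop codon, and was found in 30 of the 36 cluster genes annotated with any base after the stop codon, in 1 of 7 variant genes and in 1 of 11374 other protein-coding rows (0.00879%). Capitals mark the stem.
Form shared by 18 cluster genes, among them H2ac8, H2bc8, H1f2 and H3c1: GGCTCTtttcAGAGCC
Form of H3c3, H3c6, H3c7, H2bc3 and H2bc12: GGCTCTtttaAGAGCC
Form of the H4 genes H4c3, H4c4, H4c8 and Hist1h4n: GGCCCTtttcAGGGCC
Form of the H4 gene H4c9: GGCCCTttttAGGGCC
Form of the variant gene H2ax: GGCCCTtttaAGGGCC
The H4 forms and that of H2ax differ from the commonest form in the stem, and the form of H3c3 differs from it in the loop alone.

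Promoters were matched by symbol in a RefSeq table for 39 of the 48 genes (33 cluster, 6 variant), as 250 bases before and 50 after the start. The CCAAT box was found in 30 of 33 cluster promoters (90.9%, against 41.1% of 27025 genes in that table), TATAAA in 18 (54.5%, against 15.7%) and the octamer ATTTGCAT in 8 (24.2%, against 1.97%), each counted on either strand. The octamer lay in 5 of 9 H2B and 3 of 8 H2A promoters and in none of the H1, H3 or H4 promoters. Some head-to-head H2A and H2B genes, such as H2ac8 and H2bc8, share most of their promoter stretch. The same match can then be counted for both genes, so these counts are not independent. In 5 H4 promoters CCAAT was found in 2. A promoter is shown for an H2B gene that holds all 3 motifs and lies head to head with H2ac8, for the H3 cluster gene with the highest mean FPKM, and for H4c9, an H4 gene with high CPM that goes its own way below. The 250 bases before the start are given, with motif matches in capitals (ATTGG is CCAAT on the other strand).
H2bc8 (GRCm38.p6, chr13:23571150-23571399, plus strand): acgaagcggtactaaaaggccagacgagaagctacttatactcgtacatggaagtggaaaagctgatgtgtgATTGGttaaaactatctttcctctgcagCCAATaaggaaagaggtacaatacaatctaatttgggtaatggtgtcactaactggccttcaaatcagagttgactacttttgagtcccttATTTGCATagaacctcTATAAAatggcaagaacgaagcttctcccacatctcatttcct
H3c3 (GRCm38.p6, chr13:23745522-23745771, minus strand): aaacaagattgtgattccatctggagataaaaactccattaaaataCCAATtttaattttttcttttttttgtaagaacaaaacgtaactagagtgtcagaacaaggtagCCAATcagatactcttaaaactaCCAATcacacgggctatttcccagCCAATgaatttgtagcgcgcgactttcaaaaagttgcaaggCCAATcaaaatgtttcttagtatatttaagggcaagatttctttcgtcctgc
H4c9 (GRCm38.p6, chr13:22041363-22041612, minus strand): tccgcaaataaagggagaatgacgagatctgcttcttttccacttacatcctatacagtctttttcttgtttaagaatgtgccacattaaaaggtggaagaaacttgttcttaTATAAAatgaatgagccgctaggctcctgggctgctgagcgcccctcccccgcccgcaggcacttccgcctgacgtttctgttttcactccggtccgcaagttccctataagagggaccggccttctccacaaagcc
The H3c3 stretch holds 5 CCAAT boxes and no octamer, whereas that of H4c9 holds TATAAA alone. A match is a description of these letters and not of a factor bound there.

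Cluster genes of line 2883 stood far above those of every other culture in the vincristine and the etoposide derivative. Summed over the 41 genes, line 2883 gave 156 CPM in the parental culture, 174 in the cytarabine, 548 in the vincristine, 459.8 in the etoposide, 87.1 in the prednisone and 146 in the methotrexate derivative. Line 2696 gave 83.5 CPM parental, 105 vincristine and 72.0 etoposide, and line 2869 gave 96.5 parental, 105 cytarabine and 60.2 vincristine. Line 2641 gave 147 CPM parental and 148 prednisone, and line 7298, lowest of the 5 lines, gave 55.6 parental and 35.4 cytarabine. The other libraries thus lay between 35.4 and 174 CPM, and the 2 high libraries overlapped none of them. Against its own parental library the vincristine derivative of 2883 was 3.51-fold higher (95% exact binomial interval 3.34 to 3.69) and the etoposide derivative 2.94-fold higher (2.80 to 3.10). Such intervals, here and below, cover counting error only. In bulk RNA, more cells with such mRNA and more of it per cell cannot be told apart.

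**Figure D1:**
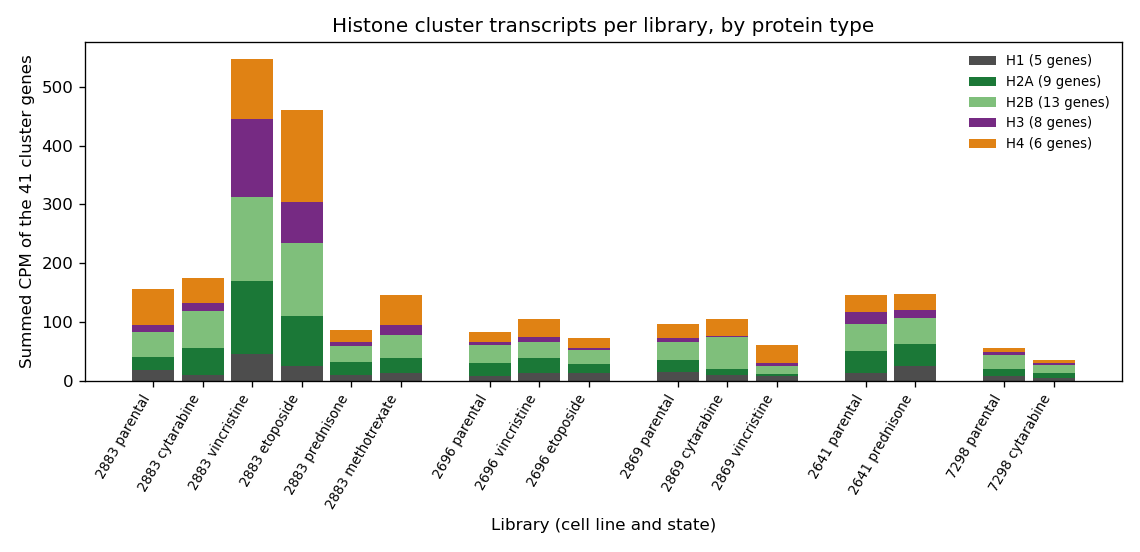
Summed CPM of the 41 cluster genes (vertical axis) in each of 16 libraries (horizontal axis, grouped by cell line), with bars divided by histone protein type. The bars of 2883 vincristine (548 CPM) and 2883 etoposide (459.8 CPM) stand above all others, which reach at most 174 CPM.

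The excess in these 2 cultures ran through all 5 protein types and all 3 chromosomes. In 35 of 41 cluster genes the 2 highest of the 16 libraries were the vincristine and the etoposide derivative of 2883, the exceptions being H2bc21, H2aw, H2bc12, H4c9, H2bc4 and H1f2. How often this order occurs over all rows was not counted. A gene was counted as higher or lower in a pair at a ratio of 2 or more with at least 20 reads in both libraries together. By this measure 36 of 41 cluster genes were higher and 0 lower in the vincristine derivative, with a median ratio of 8.66, where 9.24% of all 12539 rows with such reads were higher, 8.81% were lower and their median ratio was 1.001. In the etoposide derivative 35 of 41 were higher and 0 lower, with a median ratio of 4.87, where 13.5% of 12638 rows were higher and 9.56% lower. All 41 genes had 20 reads or more in each derivative alone, but only 14 had them in the parental library. Most genes thus passed the read filter through the derivative and could hardly be counted as lower. The interval of the ratio lay above 1 for 38 of 41 genes in each derivative, and below 1 for 1 gene in the vincristine derivative, H4c9. This count, too, was not made over all rows. The median ratio per type in the vincristine derivative was 10.2 for H3, 9.15 for H2A, 8.49 for H4, 7.84 for H1 and 5.99 for H2B. In the etoposide derivative it was 8.36 for H4, 5.02 for H2A, 4.93 for H3, 4.13 for H2B and 3.24 for H1. The vincristine derivative exceeded the etoposide derivative in 33 of 41 genes, in 8 of 8 H3 genes and in 3 of 6 H4 genes. The share of all rows with this order was not counted.

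H3c3, which encodes histone H3 (chromosome 13, 23744973 to 23745602), had the highest mean FPKM among the cluster genes for H3. It was at 8.38 FPKM (fragments per kilobase of gene span, scaled to depth) in the 2883 parental library, 7.48 in cytarabine, 102 in vincristine, 57.6 in etoposide, 6.34 in prednisone and 14.1 in methotrexate. Elsewhere it ran from 0.797 FPKM in 2869 cytarabine to 17.1 in 2641 parental. The ratio to the parental library was 12.2 (9.46 to 16.0) in vincristine and 6.89 (5.31 to 9.08) in etoposide. Both were far above the range of the 5 parental libraries, 3.19 to 17.1 FPKM. H4c2, an H4 gene, went from 4.07 FPKM to 58.6 in vincristine (14.5-fold, 9.01 to 23.4) and 38.9 in etoposide (9.59-fold, 5.92 to 15.6). H2ac8, an H2A gene, went from 5.96 FPKM to 54.4 (9.15-fold, 6.84 to 12.4) and 25.7 (4.33-fold, 3.18 to 5.94). H2bc12, an H2B gene, differed between the drugs, with 5.39 FPKM in the parental, 8.47 in the vincristine and 48.8 in the etoposide library. Hist1h2ap, another H2A gene, had the highest ratio of all, 36.5 in vincristine (12.3 to 119.8) and 28.2 in etoposide (9.47 to 92.9), from 4 parental reads.

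**Figure D2:**
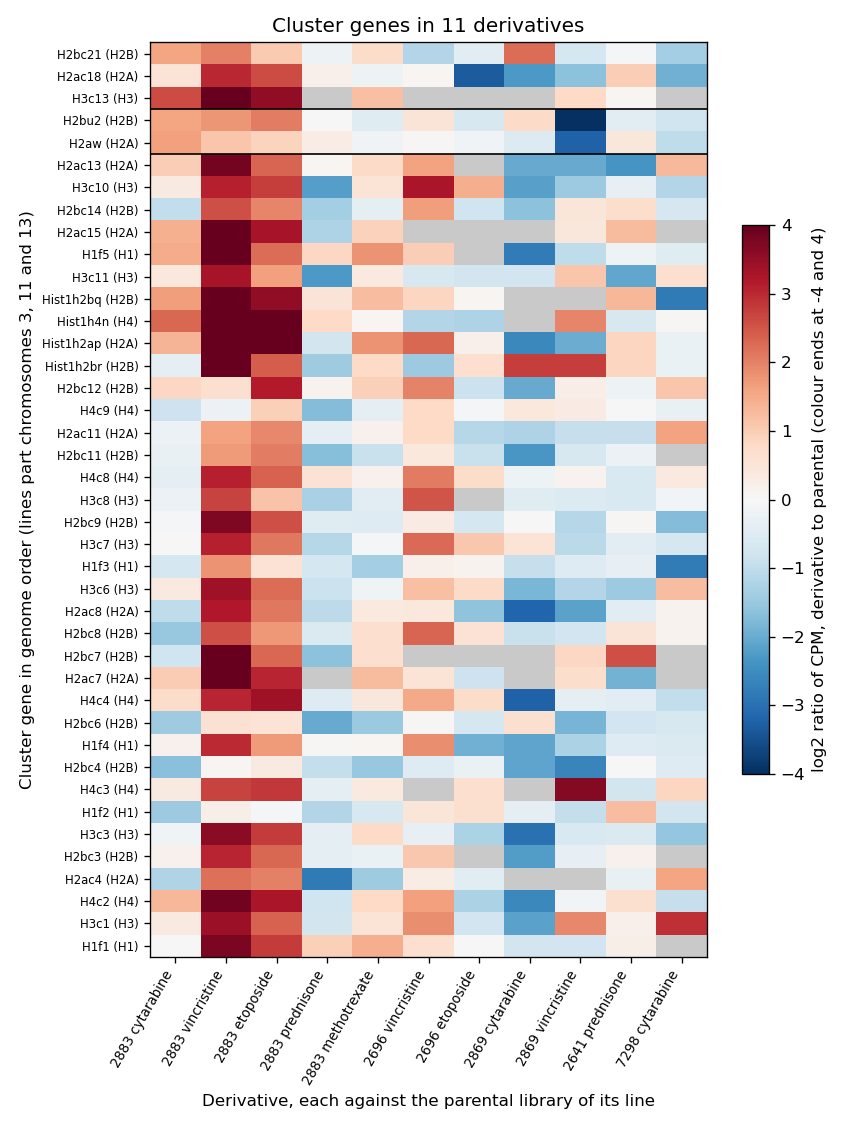
Log2 ratio of CPM between each of 11 derivatives (columns) and the parental library of its line, for 41 cluster genes in genome order (rows, protein type in brackets), with grey where neither library had more than 3 reads. The columns of 2883 vincristine and 2883 etoposide are red in nearly every row (36 and 35 of 41 genes higher), and the other columns hold both colours.

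H1f2, H2bc4, H2bc6 and H4c9 were under 2-fold higher in both derivatives, as were H2bc12 in vincristine and H2aw and H1f3 in etoposide. H1f2, a linker histone gene, was at 8.66 FPKM in the 2883 parental library, 10.1 in vincristine (1.17-fold, 0.955 to 1.44) and 8.14 in etoposide (0.940-fold, 0.757 to 1.17). H2bc4 was at 1.14, 1.22 and 1.45 FPKM in the same libraries, and H2bc6 was 1.52-fold higher in vincristine (1.10 to 2.15) and 1.47-fold in etoposide (1.06 to 2.09). H4c9 (chromosome 13, 22040636 to 22041362), the cluster gene with the highest mean CPM, was at 76.8 FPKM in the parental, 65.7 in the vincristine (0.854-fold, 0.768 to 0.952) and 148 in the etoposide library (1.92-fold, 1.75 to 2.11). Because H4c9 makes up much of the parental sum, the summed ratio without it was larger, 4.98 in vincristine and 3.51 in etoposide. The 29 cluster genes with a span under 1000 bases had median ratios of 9.15 in vincristine and 5.02 in etoposide, and the 12 with a longer span 5.94 and 2.64. This split was made after the values were seen. H2bc4, H2bc6 and H1f2 are among the longer genes, whereas H4c9 is not.

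Cluster genes are close copies of each other, so reads can be split among them. Of the 50-base words of a cluster gene, a median of 49.5% (0 to 97.3%) also occurred in another gene, against 6.14% for the variant genes, and the values of single cluster genes are uncertain by that measure. In the H1 genes 82.1% of values of 0.5 to 200 reads lay within 0.05 of a whole read, against 11.1% in the H3 genes. Under 10% of words were shared in 5 cluster genes: H1f1, H1f2, H1f3, H1f5 and H2bc21. Among these, H1f1 was at 0.789 FPKM in the 2883 parental library, 10.6 in vincristine (13.5-fold, 6.37 to 34.5) and 5.40 in etoposide (6.93-fold, 3.16 to 18.0). H1f5 was 17.9-fold higher in vincristine (6.74 to 67.1) and 4.68-fold higher in etoposide (1.59 to 18.7), and H1f3 3.44-fold (2.14 to 5.76) and 1.51-fold (0.873 to 2.67). H2bc21, on chromosome 3, was 4.04-fold higher (3.33 to 4.93) and 2.04-fold higher (1.66 to 2.54). Of these 5 genes, 4 were at least 2-fold higher in vincristine, all but H1f2, and 3 in etoposide, all but H1f2 and H1f3. H2bc6 and H1f4 overlap on the same strand, so their values cannot be separated.

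Vincristine, which blocks microtubules, was studied in lines 2883, 2696 and 2869, and the cluster genes moved in opposite directions in these lines. In 2696, 9 of 22 cluster genes with enough reads were higher and 1 lower, with a median ratio of 1.58, where 5.07% of all rows were higher and 11.4% lower. In 2869, 1 of 17 was higher and 6 lower, with a median ratio of 0.590, where 8.69% of all rows were higher and 7.04% lower. The summed level was 1.26-fold that of the parental library in 2696 (1.17 to 1.36) and 0.623-fold in 2869 (0.574 to 0.677). In 2696 the higher genes included H3c8 (5.72-fold, 1.48 to 26.5) and H2bc8 (5.06-fold, 1.63 to 18.8), both from 4 or fewer parental reads, and the lower one was H2bc21 (0.440-fold, 0.341 to 0.565). In 2869 the H2A gene H2aw was at 5.48 FPKM in the parental library and 0.587 in the derivative (0.107-fold, 0.0662 to 0.170) and H2bc4 at 1.46 and 0.235 (0.160-fold, 0.108 to 0.231). H2bu2, the H2B neighbour of H2aw on chromosome 11, had 29 reads in the 2869 parental library and 2 in the derivative.

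Across the 3 lines, no histone gene passed the test for vincristine. The test was limma's two-sided moderated test on log2(FPKM + 1) with terms for line and drug over all 16 libraries, on the 9309 genes that reached 1 FPKM in 2 or more libraries. Of the 48 genes 44 were tested, and 3 of these reached 1 FPKM only in the vincristine and etoposide libraries of 2883. At an adjusted p under 0.05, 0 of 44 were called, as were 0 of all 9309 genes (0%). At an unadjusted p under 0.05, 16 of 44 were higher and 1 lower, where 5.94% of all genes were higher and 7.91% lower. This count rested on the 2883 vincristine library: without it 1 was higher and 2 lower, and without both high 2883 libraries 3 and 3. It was 0 and 0 without the replicate block (the line term) and 5 and 0 without the 2883 parental library. The median log2 fold change of the tested histone genes was 0.96, beside -0.02 for all genes. It was 0.42 without the 2883 vincristine library, and 0.16 without both high 2883 libraries. The smallest p belonged to H3c1, an H3 gene, with a log2 fold change of 1.90 ± 0.45 (SE; limma adjusted p = 0.184). Its values were 2.51 FPKM parental and 26.9 vincristine in 2883, 0.644 and 2.31 in 2696, and 0.5261 and 1.94 in 2869, higher in 3 of 3 lines. H4c3, H2bc3, H4c8 and H3c8 followed, with log2 fold changes of 1.09, 1.26, 1.20 and 1.22 and limma adjusted p from 0.222 to 0.271. Without the 2696 parental library, H4c3 was the 1 histone gene called (1.55, limma adjusted p = 0.0419), among 9 of all 9309 genes. On the lower side the smallest p belonged to Macroh2a1 (-0.42, limma adjusted p = 0.350) and H2ax (-0.61, limma adjusted p = 0.387), and H2az1, H2bc4 and H3f3a lay between -0.33 and -0.24.

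Etoposide, which traps topoisomerase II on DNA, was compared in 2883 and 2696. In 2696, 0 of 12 cluster genes with enough reads were higher and 4 lower, with a median ratio of 0.683, where 4.28% of all rows were higher and 5.61% lower. The 4 were H2ac18 (0.101-fold), H2ac8 (0.327-fold), H3c3 (0.414-fold) and H2ac11 (0.452-fold), and the interval of each lay below 1. The summed level was 0.863-fold that of the parental library (0.794 to 0.936), against 2.94-fold in 2883, so the 2 derivatives moved in opposite directions. In the limma model 0 of 44 histone genes were called, and 0 of all genes (0%). At an unadjusted p under 0.05, 2 were higher (H4c3, 1.21 ± 0.37, and H4c4, 1.32 ± 0.51) and 1 lower (H2ax), where 3.59% of all genes were higher and 5.3% lower. The median log2 fold change was 0.66, and -0.03 without the 2883 etoposide library, so it rested on that library. H2bc3, H3c13 and Hist1h2ap had the next smallest p, with log2 fold changes of 0.96 to 1.75 and limma adjusted p of 0.589 to 0.594. Against the mean of the other 4 drugs, 0 of 44 were called, where 2 of 9309 genes were (0.0215%), and the median was 0.67 (0.09 without the 2883 etoposide library). There H4c3, H4c4, H2bc11, H3f3b and H2ac4 had the smallest p among the higher genes, all with a limma adjusted p of 0.545 to 0.561. These 5 were higher and H2ax lower at an unadjusted p under 0.05, where 4.72% of all genes were higher and 4.08% lower.

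Cytarabine, the nucleoside analogue that stops DNA synthesis and the drug the series centres on, was compared in 2883, 2869 and 7298. The cluster genes were mixed. In 2883, 8 of 34 with enough reads were higher and 6 lower (12.5% and 7.04% of all rows), in 2869 1 of 13 was higher and 5 lower (9.46% and 4.38%), and in 7298 1 of 14 was higher and 6 lower (2.32% and 6.28%). The highest ratios in 2883 were those of H3c13 (6.10, 1.80 to 30.5) and Hist1h4n (4.93, 1.64 to 28.2), both genes with few reads. Next came H2aw at 5.30 FPKM parental and 16.6 in the derivative, H2bc21 at 3.99 and 11.9, and H2bu2 at 8.20 and 24.3. Of these 5 genes only Hist1h4n lies on chromosome 13, but so do H1f5, H2ac15 and H4c2, which complete the 8 higher genes. H2bc21 was also higher in 2869, at 3.37 and 15.8 FPKM (4.68-fold, 3.85 to 5.74), but lower in 7298, at 3.24 and 1.28 (0.394-fold, 0.281 to 0.546). The summed level was 1.11-fold the parental one in 2883, 1.08-fold in 2869 and 0.636-fold in 7298. Without H2bc21, a gene left out after the values were seen, it was 0.979-fold, 0.722-fold and 0.680-fold. Without H4c9 it was 1.42-fold, 1.01-fold and 0.624-fold, so the direction in 2883 and 2869 depended on the gene left out. H3c3 was at 6.31 and 0.797 FPKM in 2869 (0.125-fold, 0.0485 to 0.249) and at 3.19 and 1.08 in 7298 (0.339-fold, 0.157 to 0.708). With limma 0 of 44 were called, as were 0 of all genes (0%), and at an unadjusted p under 0.05 none was higher (5.92% of all genes) and H2bc4 was lower (5.22%; -0.53 ± 0.21, adjusted p = 0.414). Next were H3c3 (-1.27 ± 0.66), H3f3b (-0.26), H2az1 (-0.32) and H2bc11 (-0.61) on the lower side, and H2bc21 (0.75 ± 0.58), H2bu2 (0.57), H2ax (0.19), H3c13 (0.24) and H2az2 (0.08) on the higher. The median was -0.16, beside 0.02 for all genes. It had no stable direction, at 0.03 without the 2883 cytarabine library, 0.04 without the 2869 parental library and -0.31 without the 2883 parental library. Against the mean of the other 4 drugs 0 of 44 were called, where 2 of 9309 genes were (0.0215%). There 1 gene was higher at an unadjusted p under 0.05 (5.83% of all genes, with 2.38% lower), H2ax (0.67 ± 0.30, limma adjusted p = 0.603), and H3c3 had the smallest p among the lower genes (-1.24 ± 0.68).

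Prednisone, a glucocorticoid that kills lymphoid cells, went with lower cluster genes in 2883 and a sum near the parental one in 2641. In 2883, 0 of 28 cluster genes with enough reads were higher and 9 lower (8.67% and 5.76% of all rows), and the sum was 0.556-fold the parental one (0.520 to 0.596). H4c9 made the largest part of that difference, at 76.8 FPKM parental and 23.3 in the derivative (0.304-fold, 0.264 to 0.349). In 2641, 3 of 38 were higher and 2 lower (4.07% and 8.52%), and the sum was 1.01-fold (0.955 to 1.07). H1f2 was at 5.46 FPKM in the 2641 parental library and 13.0 in the derivative (2.38-fold, 1.92 to 2.96), and at 8.66 and 3.88 in 2883 (0.448-fold). In the limma model 0 of 44 histone genes were called, where 2 of 9309 genes were (0.0215%), and the smallest p was that of H3c11, an H3 gene (-1.997 ± 0.55, adjusted p = 0.489), the 1 gene lower at an unadjusted p under 0.05 (4.43% of all genes were higher and 4.74% lower at that level). H3c11 had 10 reads in the 2883 parental library and 0 in the derivative (at least 4.90-fold lower, with 3 reads as the limit of a count of 0 in each library), and 9 and 0 reads in 2641 (at least 4.21-fold lower). The model's median of -0.62 was further below 0 than the median log2 differences of the derivatives from their own parental libraries, -0.31 in 2883 and -0.17 in 2641. It was -0.23 without the 2 high libraries of 2883, which share the term of that line.

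The methotrexate derivative of 2883, resistant to an inhibitor of folate metabolism, is 1 library against 1 and has no replicate check. Its cluster sum was 0.935-fold the parental one (0.878 to 0.995), and 1.02-fold without H4c9. Of 30 cluster genes with enough reads 2 were higher and 4 lower (7.63% and 6.93% of all rows). Among the 20 histone genes with at least 50 reads in both libraries together, the highest ratios were those of H2bc12 (1.94), H4c2 (1.72), H3c3 (1.69), H2bc21 (1.66) and H2ac8 (1.31). The lowest were H2bc4 (0.348), H2bc6 (0.358), H3f3b (0.485, 0.471 to 0.4996), H2bc11 (0.542) and H1f2 (0.647). H3f3b, a replacement H3 gene, was at 166 FPKM in the parental library and 80.6 in this derivative, the lowest of the 16 libraries.

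With all 11 derivatives against the 5 parental cultures, in a model with 1 resistance term, 0 of 44 histone genes were called, as were 0 of 9309 genes (0%). Only H2az1 reached an unadjusted p under 0.05 (-0.31 ± 0.12, limma adjusted p = 0.468), where 3.8% of all genes were higher and 5.94% lower at that level. The median of the tested histone genes was 0.10, but -0.13 without the 2883 parental library and -0.10 without both high 2883 libraries. The genes with the smallest p were H3c1, H1f1, H3c13, H2bc12 and H4c8 on the higher side, with log2 fold changes of 0.32 to 0.58, and H2az1, H2bc4, H3f3a, H2ax and Macroh2a1 on the lower side, from -0.34 to -0.09. No shared change of the histone genes with resistance was detectable in these cultures.

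The 7 variant genes are described one by one, since none passed the test in a drug comparison. H2az1, which encodes the H2A.Z variant found at promoters, was at 185, 154, 202, 151 and 137 FPKM in the parental libraries of 2883, 2696, 2869, 2641 and 7298, and at 106 to 175 in the derivatives. H2az1 was lower than in the own parental library in 11 of 11 derivatives. These comparisons share 5 parental libraries, so they are not independent, and the same order was not counted over all rows. H3f3a and H3f3b, which both encode the replacement histone H3.3, were at 41.3 to 51.3 and 163 to 242 FPKM in parental libraries and at 26.8 to 55.9 and 80.6 to 279.5 in derivatives, so their groups overlapped. H2az2 was at 3.02 to 5.97 FPKM in parental libraries and 2.22 to 7.34 in derivatives. Macroh2a1, which encodes a large H2A variant linked with silent chromatin, was at 3.27 FPKM in the 2883 parental library, 1.86 in cytarabine, 1.09 in vincristine, 1.36 in etoposide, 2.502 in prednisone and 3.28 in methotrexate. In vincristine this was 0.332-fold (0.308 to 0.357) and in etoposide 0.416-fold (0.389 to 0.446), while the other lines ran from 2.32 to 6.4 FPKM. FPKM is per kilobase of whole gene span, introns included, so these levels compare libraries and not genes.

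H2ax encodes the variant that is phosphorylated at DNA breaks. It was at 139, 166, 133, 144 and 109.8 FPKM in the parental libraries of 2883, 2696, 2869, 2641 and 7298. Its cytarabine derivatives were at 193 in 2883, 102 in 2869 and 112 in 7298, and its vincristine derivatives at 88.8 in 2883, 154 in 2696 and 68.5 in 2869. In etoposide it was at 44.3 FPKM in 2883 (0.320-fold, 0.295 to 0.346) and 163 in 2696, in prednisone at 161 in 2883 and 151 in 2641, and in methotrexate at 94.98. The lowest value of all was thus that of 2883 etoposide, a culture in which the cluster genes were high, and H2ax is the variant gene that carries the stem-loop. The limma log2 fold change was -1.05 ± 0.34 for etoposide (adjusted p = 0.531) and -0.61 ± 0.29 for vincristine (adjusted p = 0.387). Without the 2883 etoposide library, the first was -0.27.

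**Figure D3:**
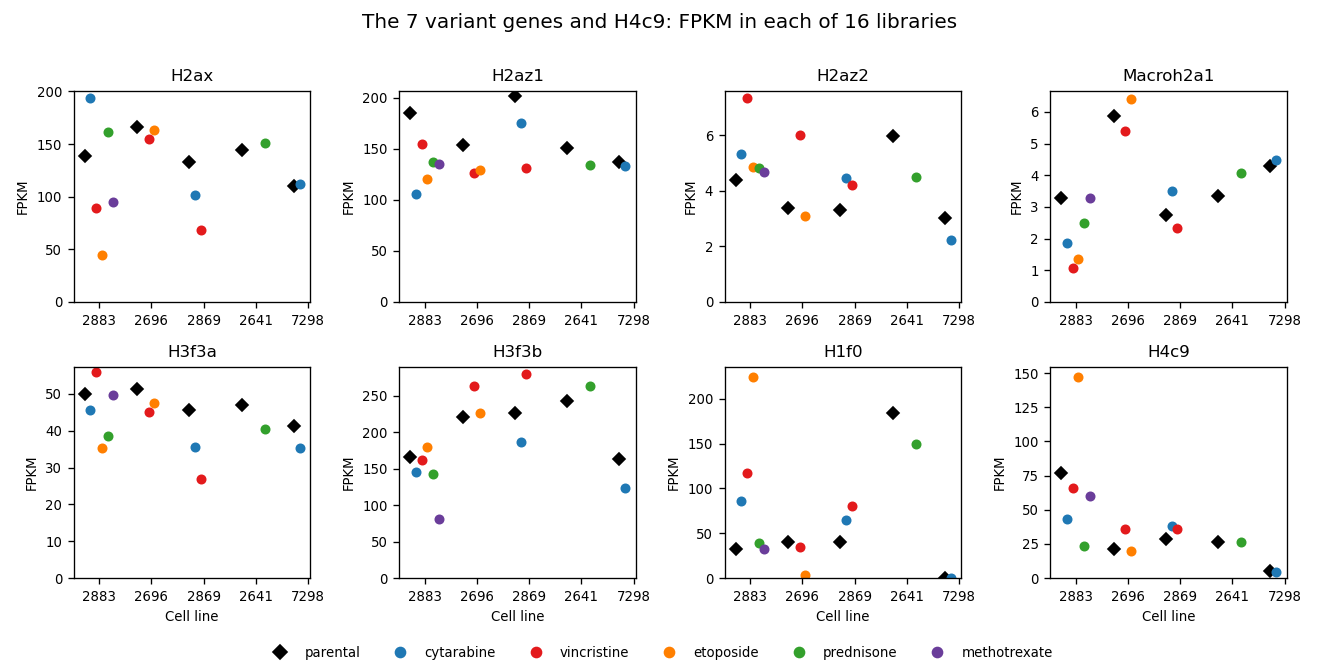
FPKM (vertical axis, from 0) of the 7 variant genes and the cluster gene H4c9 in each of 16 libraries, by cell line (horizontal axis), with diamonds for parental cultures and coloured points for derivatives. H1f0 and H4c9 are lowest in line 7298 (0 reads and at most 5.27 FPKM), and H1f0 is highest in 2883 etoposide (224 FPKM).

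H1f0, the linker histone of cells that have left the cycle or differentiate (chromosome 15, 79028450 to 79030504), varied more than any other variant gene. It had 0 reads in both libraries of line 7298, where 3 reads would correspond to 0.116 FPKM in the parental and 0.0826 in the cytarabine library. In the parental libraries of 2883, 2696, 2869 and 2641 it was at 32.4, 40.8, 40.1 and 184 FPKM, at least 279-fold, 351-fold, 346-fold and 1590-fold above that limit. In derivatives of 2883 it was at 86.1 in cytarabine, 117 in vincristine (3.60-fold, 3.34 to 3.9), 224 in etoposide (6.93-fold, 6.44 to 7.46), 39.4 in prednisone and 32.4 in methotrexate. In 2869 it was at 64.6 in cytarabine and 79.8 in vincristine, in 2641 at 149.5 in prednisone, and in 2696 at 34.5 in vincristine. It went the other way in 2696 etoposide, at 3.69 FPKM (0.0904-fold, 0.0748 to 0.108). So etoposide cultures held both the highest level of H1f0 and the lowest level outside line 7298.

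Line 7298 was compared with the mean of the Mcm2cre/cre lines in the model with drug terms. Here 2 of 44 histone genes were called, both lower, where 2.13% of all genes were called higher and 2.41% lower. H1f0 was one, with a fitted log2 difference of -6.01 ± 0.85 (limma adjusted p = 0.00388), a value set by the pseudocount because both 7298 libraries had 0 reads. H4c9 was the other, at -2.54 ± 0.42 (limma adjusted p = 0.00921). It was at 5.27 and 4.25 FPKM in line 7298, against 19.9 (2696 etoposide) to 148 (2883 etoposide) in the other lines, so the groups did not overlap. How many of all genes part the lines in this way was not counted. At an unadjusted p under 0.05, 0 histone genes were higher and 7 lower, where 7.12% of all genes were higher and 11.5% lower. The median over the 44 genes was -0.45, beside -0.04 for all genes, and -0.22 without the 7298 parental or -0.25 without the 2696 parental library. The genotype, the transgene and the single line of origin cannot be told apart here. Of 11 T cell markers tested in the same comparison, 2 were called, both lower. These were Cd8a (-3.82 ± 0.49, limma adjusted p = 0.00245) and Cd8b1 (-1.20 ± 0.25, limma adjusted p = 0.0274). The fitted difference was above 0 in 5 of the 11 markers, with a median of -0.16 and a highest value of 1.41. The part of these markers in the histone result was not tested. Without the parental or the cytarabine library of 7298 neither histone gene was called (118 and 149 of all genes were, against 422), with limma adjusted p of 0.0664 to 0.0878 for H1f0 and 0.115 to 0.123 for H4c9. Without the 2 high libraries of 2883, H2ac11 and H2bc11 were called lower too.

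The genes that make, process and deposit histones did not follow the cluster genes in line 2883. The lists held genes for synthesis and processing of histone mRNA (22 rows of 25 genes), histone chaperones (21) and DNA replication (28). In all 8 comparisons 0 of their tested genes were called. The drug comparisons called only 0 to 2 of all 9309 genes, and no cluster gene, so that count says little there. In line 7298 against the Mcm2cre/cre lines 2.13% of all genes were called higher and 2.41% lower. In the vincristine derivative of 2883 the median ratio to the parental library was 0.869 for processing, 0.934 for chaperones and 0.917 for replication genes, and in the etoposide derivative 0.738, 0.8294 and 0.764. Slbp, which binds the stem-loop, was at 14.4 FPKM in the parental library, 14.8 in vincristine and 4.82 in etoposide. In other lines Slbp ran from 7.95 (2696 etoposide) to 35.2 FPKM (2869 vincristine). Npat, the coactivator of the clusters, was at 2.94, 3.32 and 3.33 FPKM in these 3 libraries of 2883, and Pcna, the replication clamp, at 149.5, 132 and 91.4. Zfp473, a zinc finger protein of the U7 machinery, was the processing gene with the highest ratio, at 0.106, 0.319 and 0.416 FPKM. It was at 0.357 in cytarabine and 0.330 in prednisone. Below 1 FPKM in all 16 libraries, Zfp473 did not enter the model, and its part in the results was not tested. In the limma model the processing genes with the smallest p were Srrt (0.26) and Slbp (0.50) on the higher and Cpsf2 (-0.24) and Ccne2 (-0.38) on the lower side for vincristine, with adjusted p of 0.401 to 0.434.

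**Figure D4:**
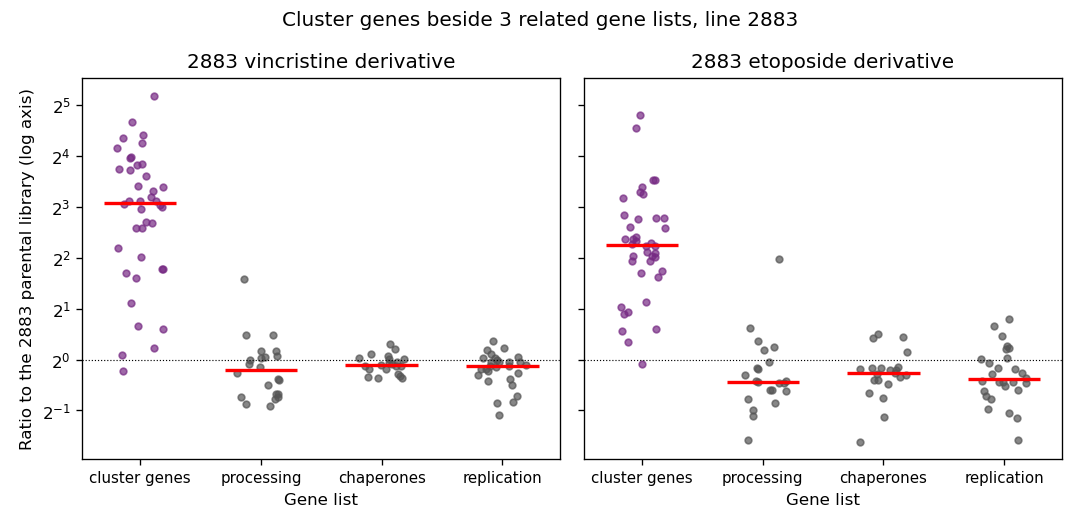
Ratio to the 2883 parental library (vertical axis, log scale) for cluster genes and the genes of 3 related lists (horizontal axis). The vincristine derivative of 2883 is on the left and the etoposide derivative on the right. Points are genes and red lines are medians of the points drawn. The cluster gene H2ac7, with 0 reads in the parental library, is not drawn. Over all 41 cluster genes the medians were 8.66 and 4.87, and the medians of the other lists lie between 0.738 and 0.934.

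RNAs without a long poly(A) tail were measured as a reference for carried-over RNA. The mitochondrial ones among them can carry short A tails. Of 26 such genes 6 had rows, the nuclear or cytoplasmic Rn7sk, Rn7s1, Rn7s2 and Rpph1 and the mitochondrial mt-Rnr1 and mt-Rnr2. Their median ratio was 1.42 in the vincristine and 1.14 in the etoposide derivative of 2883, and 2.32 in the methotrexate derivative, in which the cluster genes were not high. Their summed level was 1049 CPM in the 2883 parental library, 2637 in vincristine, 1525 in etoposide, 1954 in prednisone and 2859 in methotrexate. It was thus also above the parental level in both derivatives with high cluster genes, and its part in the result was not tested. The mitochondrial genes carried this sum, with mt-Rnr2 at 431 FPKM parental, 1318 in vincristine and 681 in etoposide, and mt-Rnr1 at 376, 568 and 461. The sum is thus not a measure of untailed RNA alone. Among the others, Rpph1 was lower in both derivatives (9.06, 6.25 and 3.32 FPKM). Rn7sk (5.75, 9.54 and 6.59) and the equal values of Rn7s1 and Rn7s2 (5.52, 7.33 and 6.22) were higher. Between the first and last Hist1 gene lie 6 rows that are not histone genes, and 1 of them was at least 2-fold higher in each of the 2 derivatives. This was 4930558J22Rik, which lies at H4c2, at 0.252 FPKM in the parental library, 2.24 in vincristine and 1.58 in etoposide. H4c2 overlaps 1 row on the opposite strand, and whether the reads of the overlapping genes are separate was not tested. The other rows of the region, with Hfe and Zfp184 among them, were not 2-fold higher. Histone variant genes outside the rule had 4 rows (Cenpa, H1f10, H2aj and H3f3c), of which 0 were 2-fold higher in either derivative. The 1 stromal marker with a row, Pdgfrb, was 38.6-fold higher in 2883 vincristine and 0.263-fold in 2883 etoposide, and its part in the results was not tested.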

How the data were processed

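RNA of 16 mouse T-ALL cultures (5 parental, 11 resistant) was sequenced. The authors deposited 1 table of FPKM values per gene, made, per the submitters' processing notes, with STAR, cutadapt and Partek on mm10 (no versions given). In that table length is the whole gene span, introns included, so values compare libraries better than genes. CPM was computed here as FPKM times span in kilobases. Read numbers were inferred from the step between low values. Of a library's values of 0.5 to 200 reads, 70.6% to 75.6% were whole reads to a tolerance of 0.05, too few for a count test.

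Tests used limma 3.58.1 in R 4.3.3, with a trended prior, and took log2(FPKM + 1) of genes that reached 1 FPKM in 2 or more libraries. Terms for line and drug left 6 residual degrees of freedom, and the model with 1 resistance term left 10. P-values were two-sided and adjusted over 9309 genes by Benjamini-Hochberg with a threshold of 0.05. Single pairs were compared by ratio with exact binomial (Clopper-Pearson) 95% intervals on inferred reads, computed with SciPy 1.17.1. These intervals cover counting error only. The fit was tested on simulated data. The line number pairs derivatives with their parental culture, and 11 of 11 derivatives correlated best with their own parental library (r 0.942 to 0.981), so line is a term of the model. No 2 libraries agreed within sampling noise.

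The genes, lists and tests were chosen with earlier results of these data known. Genes named in the text are those called or, where none was, up to 5 per direction with the smallest p, the 7 variant genes, the gene with the highest mean of each type and those outside chromosome 13. For methotrexate they are the 5 highest and 5 lowest ratios with at least 50 reads. Further genes (those with nearly unique sequence, or standing outside a pattern) were chosen after their values were seen. Genes of related lists are those with the smallest p, 2 per direction, or chosen after their values were seen. Alternatives were a pseudocount of 0.1, no filter, a filter of 20 reads, median-of-ratios and quantile scaling, log2(CPM + 1), no line term, line 7298 left out and each library left out. Leaving out both high libraries of line 2883, and H2bc21 from the sums, was added after seeing the data. Stem-loops came from GENCODE vM21 transcripts and promoters from RefSeq on GRCm38.p6.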

Additional observations from a re-analysis of the deposited data

Results flagged for a closer look

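Hist1h2bq, an H2B gene, stood apart in 1 parental library: it was at 0.5317 FPKM (24 reads) in line 7298, while the other 4 parental libraries reached at most 0.142 FPKM. H1f0 stood apart in the parental library of line 2641, at 184.3 FPKM, while the others reached at most 40.8. These were 2 of 49 groups examined, and chance alone marks about 1 in 20.

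The summed level of the cluster genes went in opposite directions between lines under 3 drugs, for cytarabine only with H2bc21 in the sum. For cytarabine the ratio to the parental library was 1.114 in 2883 and 1.085 in 2869, but 0.6361 in 7298. Without H2bc21, left out after the values were seen, these ratios were 0.979, 0.722 and 0.680, all below 1. Without H4c9 they were 1.42, 1.01 and 0.624. For etoposide the ratio with all genes in the sum was 2.944 in 2883 and 0.8627 in 2696. For vincristine it was 3.51 in 2883, 1.258 in 2696 and 0.6231 in 2869. With 1 library per line and drug, the difference between lines was not tested.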

How the results depend on the processing

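No histone gene was called in any drug comparison under any alternative, except H4c3 for vincristine without the 2696 parental library, where 1 histone gene and 9 of all genes were called. In line 7298 against the Mcm2cre/cre lines, the 2 calls became 0 to 3 when single libraries were left out (118 to 427 of all genes, against 422) and 4 without both high libraries of 2883 (382 of all genes). Leaving out single libraries, the median ran from -0.31 to 0.04 for cytarabine, 0.42 to 1.45 for vincristine, -0.03 to 1.29 for etoposide, -0.13 to 0.19 for all derivatives, 0.09 to 1.18 for etoposide against other drugs and -0.53 to -0.22 for line 7298. The 16 vincristine genes higher at an unadjusted p under 0.05 became 1 to 26 in this way, 0 without the replicate block and 9 to 17 under other filters, pseudocounts and scalings. The median for prednisone was -0.80 with a pseudocount of 0.1, 0.21 without the replicate block (the line term), -0.23 without both high libraries of 2883 and -1.01 to -0.17 when single libraries were left out. The median over all derivatives was 0.36 without the replicate block and -0.10 without both high libraries. The median for cytarabine against the other drugs was -0.69 without the replicate block, 0.03 without both high libraries and -0.537 to -0.0461 when single libraries were left out. Without H4c9, the summed ratio in 2883 was 1.42 for cytarabine, 4.97 for vincristine, 3.50 for etoposide, 0.697 for prednisone and 1.02 for methotrexate, and for vincristine 1.15 in 2696 and 0.450 in 2869. With all 41 genes and median-of-ratios scaling, methotrexate gave 0.997 in place of 0.935. Without H2bc21 the summed ratio was 0.979 for cytarabine in 2883, 0.722 for cytarabine in 2869 and 1.42 for vincristine in 2696.

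Genes that reversed all missed the threshold. Without the replicate block these were H2ax (-0.0748) and H2az2 (-0.0294) for cytarabine; Macroh2a1 (-0.19), H2bc11 (0.46) and H3c8 (0.11) for prednisone; H2bu2 (-0.25), H2aw (-0.20) and H1f0 (-1.46) for cytarabine and Macroh2a1 (0.0542) for etoposide, both against other drugs. With quantile scaling H3f3b was 0.0188 for cytarabine. Without both high libraries of 2883, Macroh2a1 was 0.0431 for etoposide, and against other drugs H2bc11 was -0.0537, H2ax 0.0573 and Macroh2a1 0.0150. With single libraries left out, cytarabine values ran from -0.10 to 0.39 for H2ax, -0.10 to 0.51 for H3c13 and -0.0914 to 0.256 for H2az2, and Macroh2a1 ran from -0.152 to 0.0710 over all derivatives. For etoposide against other drugs H3f3a ran from -0.372 to 0.112 and H2az1 from -0.172 to 0.0347. The cause was not tested. The comparisons against other drugs could not be fitted without the methotrexate library, and that of line 7298 not without the line term. Low read numbers limit most cluster genes: outside 2883, 12 to 38 of 41 had 20 reads in a pair.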
